A study of Mus musculus with 6 samples.

Results

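The 9 genes tied to the glucocorticoid receptor were followed across skin libraries of control mice and of mice with bleomycin-induced scleroderma. The genes were Zbtb16, Fkbp5, Tsc22d3, Sgk1, Dusp1, Klf9, Mt1, Mt2 and the receptor gene Nr3c1. They were picked by symbol as known targets of the receptor, after their levels in these same libraries were known, so their values are given as a description with no test. All 9 were found among the 27179 genes of the count table, and all 9 passed the filter on low counts that left 17377 genes. The skin came from female BALB/c mice of 6 to 8 weeks. Of the 4 groups, bleomycin with EHP-101 had 1 library, bleomycin with ajulemic acid had 3, bleomycin alone had 1 and the control had 1. Bleomycin is a DNA-damaging drug used to provoke skin fibrosis in mice, EHP-101 is an oral formulation of a cannabidiol derivative, and ajulemic acid is a synthetic cannabinoid. The labels give no dose, route, vehicle, treatment time or hour of collection, and do not say whether each library came from a separate animal, so the spread between the ajulemic acid libraries may be technical.

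Glucocorticoids (corticosterone in the mouse) enter cells and bind their receptor, which Hsp90 chaperones hold ready in the cytoplasm. The bound receptor moves to the nucleus, binds DNA elements near target genes and raises their transcription, while it lowers that of many inflammatory genes. Adrenal hormone output follows the time of day and rises with stress, and skin can also regenerate and inactivate the hormone by itself. Corticosterone was not measured here.

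The libraries held 14291592 to 19837682 counts on genes, of which mitochondrial ribosomal RNA took 17.3 to 26.5%. Levels are given as CPM, which is the count of a gene scaled to a library of fixed size after a correction by the TMM method. The keratinocyte markers Krt5, Krt14, Krt1 and Krt10 summed to 5680 to 10048 CPM, so epidermis was present in every library. Transcripts of other tissues were present too. The 6 hepatocyte markers summed to 514 CPM with EHP-101 and to 6.47, 13.9 and 2.14 CPM with ajulemic acid, against 545 CPM in the bleomycin library and 788 CPM in the control. The 6 skeletal muscle markers summed to 1994 to 4506 CPM. In bulk skin, fewer cells of a type and less RNA per cell cannot be told apart.

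Zbtb16 and Fkbp5 were highest in the bleomycin library, lower with EHP-101, lower still with ajulemic acid and close to the control at the low end. Zbtb16 encodes PLZF, a zinc finger transcription factor that is induced by glucocorticoids in many cell types. Zbtb16 (NCBI gene number 235320, mm10 chromosome 9, 48654297 to 48835945, minus strand, 7 exon blocks) stood at 107 CPM with EHP-101. In the 3 ajulemic acid libraries it stood at 72.2, 53.2 and 25.9 CPM (mean 50.4 ± 23.3, SD, n = 3). The bleomycin library had 219 CPM, with an exact 95% Poisson interval of 212 to 226, and the control library had 34.9 CPM (32.0 to 38.0). Bleomycin was thus the highest library, EHP-101 lay above all 3 ajulemic acid libraries, and the control lay inside their range. These intervals, and those of the ratios below, cover counting error only.

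As ratios, Zbtb16 in the bleomycin library was 6.26 times the control level, with an interval of 5.72 to 6.88. With EHP-101 it was 0.490 of the bleomycin level (0.463 to 0.519) and still 3.07 times the control level. With ajulemic acid it was 0.330, 0.243 and 0.118 of the bleomycin level. All 3 libraries were therefore below both other bleomycin-treated groups, but they differed 2.79-fold among themselves, so the size of the ajulemic acid difference depended on the library. The fitted log2 fold change of ajulemic acid against bleomycin was -2.12, and ran between -2.47 and -1.80 when 1 of the 3 libraries was left out.

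Fkbp5 encodes FKBP51, a co-chaperone of Hsp90 that lowers the receptor's affinity for hormone, and its induction by the receptor forms a short feedback loop. Fkbp5 (gene number 14229, chromosome 17, 28399095 to 28441056, minus strand, 10 exon blocks) stood at 54.0 CPM with EHP-101 and at 49.1, 36.7 and 21.6 CPM with ajulemic acid (mean 35.8 ± 13.8, SD, n = 3), against 107 CPM in the bleomycin library. The control library had 25.2 CPM. The order of the groups was that of Zbtb16, and the control again lay inside the ajulemic acid range. Bleomycin was 4.23 times the control level (3.79 to 4.74), EHP-101 was 0.506 of the bleomycin level (0.466 to 0.549), and the ajulemic acid libraries were 0.460, 0.343 and 0.202 of it. The ajulemic acid library with the highest Zbtb16 was also the one with the highest Fkbp5, and the one with the lowest Zbtb16 had the lowest Fkbp5.

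**Figure D1:**
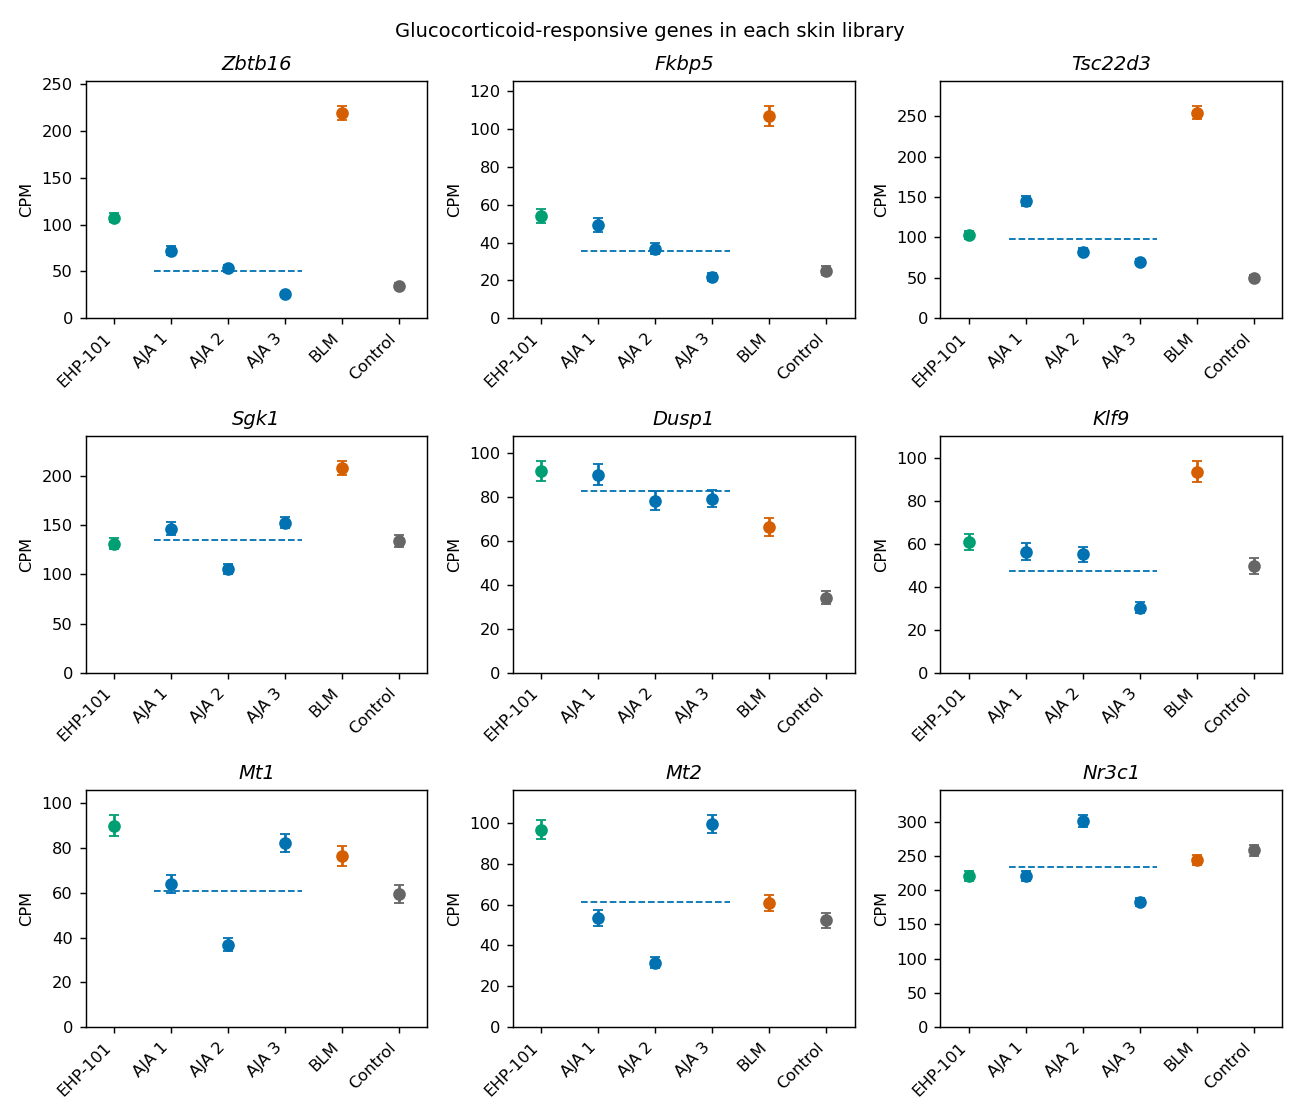
CPM of each of the 9 genes in each library, with EHP-101, ajulemic acid, bleomycin and control from left to right. Points are libraries, bars through them are exact 95% Poisson intervals of the count, and the dashed line marks the mean of the 3 ajulemic acid libraries. Zbtb16, Fkbp5 and Tsc22d3 peak in the bleomycin library, at 219, 107 and 254 CPM.

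Tsc22d3 encodes GILZ, a leucine zipper protein that restrains inflammatory transcription and is among the most widely induced glucocorticoid targets. Tsc22d3 (gene number 14605, chromosome X, 140539528 to 140600522, minus strand) stood at 103 CPM with EHP-101, at 145, 82.0 and 69.3 CPM with ajulemic acid (mean 98.6 ± 40.3, SD, n = 3), at 254 CPM in the bleomycin library and at 49.4 CPM in the control. Here EHP-101 lay inside the ajulemic acid range, and the control lay below it. The bleomycin level was 5.15 times that of the control (4.76 to 5.57). EHP-101 was 0.405 of the bleomycin level, and ajulemic acid 0.569, 0.323 and 0.273 of it. RefSeq gives this gene 3 start sites, which counts per gene do not separate.

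Klf9, a Krüppel-like transcription factor that responds both to glucocorticoids and to the circadian clock, had the same peak with a smaller range. Klf9 (gene number 16601, chromosome 19, 23141226 to 23166911, plus strand) stood at 60.6 CPM with EHP-101, at 56.2, 55.1 and 30.3 CPM with ajulemic acid (mean 47.2 ± 14.6, SD, n = 3), at 93.6 CPM in the bleomycin library and at 49.6 CPM in the control. The bleomycin library was above all others, at 1.89 times the control level (1.73 to 2.06). The control lay inside the ajulemic acid range. The third ajulemic acid library, lowest of the 6 for Zbtb16 and Fkbp5, was also the lowest for Klf9, at 0.324 of the bleomycin level against 0.601 and 0.588 in the other two.

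Sgk1 encodes a serum- and glucocorticoid-induced kinase that regulates ion channels and cell survival. The 250 bases before one of its 6 RefSeq starts (build GRCm38.p6, the mm10 assembly, chr10:21993640-21993889, plus strand) are shown because they hold a full palindromic glucocorticoid response element, in capitals.
Sgk1: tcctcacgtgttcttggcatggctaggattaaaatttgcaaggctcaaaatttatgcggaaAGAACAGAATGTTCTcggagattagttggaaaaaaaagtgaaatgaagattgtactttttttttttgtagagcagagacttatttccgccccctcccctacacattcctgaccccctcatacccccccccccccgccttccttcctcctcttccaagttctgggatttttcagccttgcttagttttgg
The element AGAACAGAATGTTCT lies at chr10:21993701-21993715 and its first base is 189 bases before the start. The letters searched were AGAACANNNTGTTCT, which read the same on both strands. They occur in 3 of 32851 RefSeq promoter windows of 300 bases (250 before and 50 after the start), or 0.00913%, in Acnat2, Gm35041 and Sgk1. The half-site AGAACA, searched on both strands and contained in the full element, occurs in 19.0% of windows. It occurs in 3 of the 6 Sgk1 windows, 5 times in all, and once in a Tsc22d3 window. A match is a description of the letters, and no binding was measured.

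Sgk1 (gene number 20393, chromosome 10, 21882184 to 21999903, plus strand, 19 exon blocks) stood at 131 CPM with EHP-101, at 147, 106 and 152 CPM with ajulemic acid (mean 135 ± 25.6, SD, n = 3), at 208 CPM in the bleomycin library and at 134 CPM in the control. Only the bleomycin library stood apart from the rest. It had 1.56 times the control level (1.47 to 1.65), while EHP-101 was 0.629 of the bleomycin level and ajulemic acid 0.705, 0.507 and 0.733 of it. EHP-101 and the control differed by less than counting error, with a ratio of 0.980 (0.922 to 1.04). The ajulemic acid library with the lowest Sgk1 was the second one, which was not the lowest for Zbtb16, Fkbp5, Tsc22d3 or Klf9.

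Dusp1 encodes a phosphatase that switches off MAP kinases. It is induced by glucocorticoids, and also within minutes by growth factors, stress and cyclic AMP. The 250 bases before its start (GRCm38.p6, chr17:26508473-26508722, minus strand) are shown because they hold a palindromic cyclic AMP response element, TGACGTCA, in capitals.
Dusp1: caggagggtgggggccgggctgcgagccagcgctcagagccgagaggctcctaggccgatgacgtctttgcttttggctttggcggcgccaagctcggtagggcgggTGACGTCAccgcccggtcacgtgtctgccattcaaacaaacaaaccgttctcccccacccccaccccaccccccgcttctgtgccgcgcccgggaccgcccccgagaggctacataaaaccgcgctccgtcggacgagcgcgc
TGACGTCA reads the same on both strands and occurs in 1.79% of the promoter windows. The same window holds 1 E-box, CACGTG, which occurs in 7.15% of windows, and which is found once in the windows of Fkbp5 and of Sgk1 too. The Fkbp5 start in RefSeq lies 45093 bases upstream of the gene as placed in the count table. The Dusp1 window holds no AGAACA half-site.

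Dusp1 did not peak in the bleomycin library. Dusp1 (gene number 19252, chromosome 17, 26505591 to 26508472, minus strand) stood at 91.5 CPM with EHP-101, at 90.0, 78.2 and 79.1 CPM with ajulemic acid (mean 82.4 ± 6.56, SD, n = 3), at 66.0 CPM in the bleomycin library and at 34.02 CPM in the control. All 3 ajulemic acid libraries and the EHP-101 library were above bleomycin, and the control was below every other library. EHP-101 was 1.39 times the bleomycin level (1.280 to 1.502) and 2.69 times the control level. Bleomycin was 1.94 times the control level (1.74 to 2.16). A gene of the opposite strand, with gene number 100862171 and no symbol, overlaps Dusp1 in the count table. The library kit was stranded, but the strand setting of the counting is not given in the sources used here.

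Fos, Fosb and Nr4a1, immediate early genes that answer growth factor and stress signals, had the Dusp1 order. Of 19 immediate early genes tested, 15 had a positive log2 fold change for EHP-101 against bleomycin and 6 were over 2-fold higher, against 5.26% of all tested genes over 2-fold higher. For ajulemic acid against bleomycin, 15 were positive and 4 over 2-fold higher, against 4.35% of all tested genes. Fos stood at 213 CPM with EHP-101, at 186 ± 50.1 CPM with ajulemic acid (SD, n = 3), at 83.8 CPM in the bleomycin library and at 18.8 CPM in the control. Fosb stood at 72.5 CPM with EHP-101, at 49.4 ± 10.03 CPM with ajulemic acid (SD, n = 3), at 19.8 CPM with bleomycin and at 3.68 CPM in the control. Nr4a1, a nuclear receptor of the same early class, stood at 43.5 CPM, 32.7 ± 12.9 CPM (SD, n = 3), 14.7 CPM and 10.4 CPM in the same order of groups. Klf6 and Klf4 were slightly lower with EHP-101 than in bleomycin, at log2 fold changes of -0.18 and -0.18, and Gadd45b was lower with ajulemic acid at -0.25. None of the 19 passed edgeR's test at an adjusted p of 0.05 in these comparisons, while 6 were higher at an unadjusted p of 0.05 in each, beside 0.575% of all tested genes with EHP-101 and 0.622% with ajulemic acid, and DESeq2 called 1 higher in each, beside 0.0115% and 0.023%. Klf2 and Ier3 were lower in bleomycin than in the control, at -0.29 and -0.23.

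Mt1 and Mt2 encode metallothioneins, small proteins that bind zinc and copper. They are induced by metals through the factor MTF1 and by glucocorticoids. The 250 bases before each start (GRCm38.p6, plus strand, Mt1 at chr8:94178839-94179088 and Mt2 at chr8:94172368-94172617) are shown because both hold cores of the metal response element, in capitals.
Mt1: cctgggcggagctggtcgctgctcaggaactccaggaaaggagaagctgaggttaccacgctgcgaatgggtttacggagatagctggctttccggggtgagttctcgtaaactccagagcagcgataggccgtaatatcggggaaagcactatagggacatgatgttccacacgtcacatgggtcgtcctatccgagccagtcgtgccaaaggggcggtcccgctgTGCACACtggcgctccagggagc
Mt2: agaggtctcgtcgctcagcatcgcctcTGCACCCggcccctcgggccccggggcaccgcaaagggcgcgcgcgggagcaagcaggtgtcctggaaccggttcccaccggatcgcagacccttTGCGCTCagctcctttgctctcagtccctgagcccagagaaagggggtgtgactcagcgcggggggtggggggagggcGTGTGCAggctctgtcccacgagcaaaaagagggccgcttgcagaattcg
The letters searched were TGCACNC or TGCGCNC on both strands, and a capital run beginning with G is a match on the opposite strand. The core occurs in 25.7% of the promoter windows, and 3 or more times in 1.97%. The full Mt2 window holds 4, of which 3 lie before the start and 1 after it. The full Mt1 window holds 3, of which 1 lies before the start and 2 after it. Neither window holds an AGAACA half-site.

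The metallothioneins differed little between bleomycin and control but widely between the ajulemic acid libraries. Mt1 (gene number 17748, chromosome 8, 94179089 to 94180327, plus strand) stood at 89.8 CPM with EHP-101, at 63.9, 36.8 and 82.2 CPM with ajulemic acid (mean 61.0 ± 22.9, SD, n = 3), at 76.2 CPM in the bleomycin library and at 59.4 CPM in the control. Mt2 (gene number 17750, chromosome 8, 94172618 to 94173567, plus strand) stood at 96.6 CPM with EHP-101, at 53.4, 31.6 and 99.2 CPM with ajulemic acid (mean 61.4 ± 34.5, SD, n = 3), at 60.7 CPM with bleomycin and at 52.3 CPM in the control. For both genes, bleomycin and control lay inside the ajulemic acid range. Bleomycin was 1.28 times the control level for Mt1 (1.18 to 1.40) and 1.16 times for Mt2 (1.06 to 1.28), which is less than the 2.24-fold and 3.14-fold ranges of Mt1 and Mt2 within the ajulemic acid group. The log2 fold change of Mt2 for ajulemic acid against bleomycin was 0.016, and without the third ajulemic acid library it was -0.52. The annotation places the transcript Gm45774 on the opposite strand of Mt2, where it covers 254 of 554 stretches of 50 bases.

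Most genes of the metal response had another pattern. Of the metal response genes other than Mt1 and Mt2, 9 were tested. Of these 4 were over 2-fold lower in bleomycin against control, beside 7.1% of all tested genes, and 2 were over 2-fold higher for EHP-101 against bleomycin, beside 5.26%. Slc39a10, a zinc importer, stood at 212 CPM with EHP-101, at 190 ± 124 CPM with ajulemic acid (SD, n = 3), at 59.4 CPM in the bleomycin library and at 248 CPM in the control. Gclc, which starts glutathione synthesis, stood at 60.6 CPM with EHP-101, at 60.4 ± 27.6 CPM with ajulemic acid (SD, n = 3), at 32.1 CPM with bleomycin and at 82.6 CPM in the control. Slc39a10 and Gclc were thus lowest in the bleomycin library, in contrast to Zbtb16. Hmox1, of the same list, was instead highest in the bleomycin library, at a log2 fold change of 0.57 against the control. Mtf1 itself stood at 39.9 CPM with EHP-101, 36.9 ± 6.11 CPM with ajulemic acid (SD, n = 3), 31.4 CPM with bleomycin and 27.6 CPM in the control. None of the 9 passed edgeR's adjusted test or DESeq2's in either comparison, and none had an unadjusted p under 0.05. The hair follicle markers, which also were low in the bleomycin library and in the second ajulemic acid library, summed to 5113 CPM with EHP-101, to 5739, 269 and 12938 CPM with ajulemic acid, to 519 CPM with bleomycin and to 6147 CPM in the control. Mt1, Mt2 and Slc39a10 had their lowest ajulemic acid value in that second library, and the part of the follicle in this was not tested.

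Nr3c1 encodes the glucocorticoid receptor itself, which is made in nearly every cell type. Nr3c1 (gene number 14815, chromosome 18, 39410545 to 39487245, minus strand) stood at 221 CPM with EHP-101, at 220, 301 and 182 CPM with ajulemic acid (mean 235 ± 60.6, SD, n = 3), at 244 CPM in the bleomycin library and at 258 CPM in the control. Every single library lay inside the ajulemic acid range. Bleomycin was 0.945 of the control level (0.904 to 0.988). The receptor thus differed 1.65-fold over all 6 libraries, against 8.46-fold for Zbtb16, 5.15-fold for Tsc22d3 and 4.95-fold for Fkbp5.

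Chaperones and coregulators of the receptor were within 2-fold in these comparisons. None of 17 chaperones and coregulators was over 2-fold higher or lower in bleomycin against control, beside 7.75% and 7.1% of all tested genes. Nor was any for EHP-101 against bleomycin, beside 5.26% and 4.02%, or for ajulemic acid against bleomycin, beside 4.35% and 3.94%. The median log2 fold changes of the 17 in these comparisons were 0.03, 0.16 and 0.15. Fkbp4, the co-chaperone that competes with Fkbp5 on the same complex and favours hormone binding, stood at 103 CPM with EHP-101, at 105 ± 23.7 CPM with ajulemic acid (SD, n = 3), at 85.4 CPM with bleomycin and at 98.2 CPM in the control. Hsp90ab1, an Hsp90 chaperone, stood at 1005 CPM, 1000 ± 133 CPM (SD, n = 3), 900 CPM and 818 CPM in the same order. Nr3c2, the mineralocorticoid receptor, which also binds corticosterone, stood at 12.2 CPM, 10.8 ± 3.88 CPM (SD, n = 3), 13.7 CPM and 10.97 CPM. The greatest log2 fold changes among the 17 were 0.53 for Hspa1a and -0.46 for Ptges3 in bleomycin against control, 0.46 for Hsp90aa1 and -0.17 for Nr3c2 with EHP-101 against bleomycin, and 0.46 for Hsp90aa1 and -0.38 for Ppargc1a with ajulemic acid against bleomycin. Log2 fold changes were also -0.34 for Hsp90aa1 in bleomycin against control, 0.45 for Ptges3 with EHP-101 against bleomycin, and 0.43 for Stip1 and -0.35 for Nr3c2 with ajulemic acid against bleomycin. Hspa1a, an inducible heat shock protein, had a wider range over the libraries than Nr3c1, with 26.7 CPM with EHP-101, 36.8, 22.3 and 24.7 CPM with ajulemic acid, 20.8 CPM with bleomycin and 14.4 CPM in the control. In these 3 comparisons edgeR called none of the 17, none had an unadjusted p under 0.05, and DESeq2 called none.

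Genes that act on the hormone inside a tissue were read next. Hsd11b1, which regenerates active corticosterone, stood at 6.28 CPM with EHP-101, at 3.13, 6.19 and 2.34 CPM with ajulemic acid, at 5.77 CPM in the bleomycin library and at 16.4 CPM in the control, so the control was above every other library. The adipocyte and hepatocyte markers also summed highest in the control, at 1468 and 788 CPM. The part of these tissues in the Hsd11b1 level was not tested. Hsd11b2, which inactivates the hormone, stood at 4.39 CPM with EHP-101, at 2.03 ± 0.456 CPM with ajulemic acid (SD, n = 3), at 1.603 CPM with bleomycin and at 2.17 CPM in the control. Of 16 steroid metabolism genes listed, 12 passed the filter on low counts. For bleomycin against control 2 of them were over 2-fold lower and none over 2-fold higher, beside 7.1% and 7.75% of all tested genes. For EHP-101 against bleomycin 4 were over 2-fold lower and 1 higher, beside 4.02% and 5.26%, and for ajulemic acid against bleomycin 1 was lower and none higher, beside 3.94% and 4.35%. The gene lower with ajulemic acid was Serpina6, at a log2 fold change of -4.65. It stood at 1.83 CPM with EHP-101, at 0.136, 0 and 0.0997 CPM with ajulemic acid, at 2.12 CPM with bleomycin and at 4.53 CPM in the control. The hepatocyte markers were low in the ajulemic acid libraries too, and their part in Serpina6 was not tested. Akr1c18, a progesterone-inactivating reductase, was lower with EHP-101 than in bleomycin at a log2 fold change of -2.42, and Cyp17a1, an enzyme of androgen synthesis, at -1.69. By edgeR none passed the adjusted test in bleomycin against control, EHP-101 against bleomycin or ajulemic acid against bleomycin, and at an unadjusted p under 0.05 there were none in the first of these, 1 higher with EHP-101, beside 0.575%, and 1 lower with ajulemic acid, beside 3.21%. DESeq2 called none, none and 1 lower, beside 0.57% lower with ajulemic acid. Log2 fold changes were 0.47 for Star and 0.27 for Abcb1a in bleomycin against control, 0.30 for H6pd with EHP-101 against bleomycin and 0.10 for Srd5a1 with ajulemic acid against bleomycin.

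Per kilobase of exon, where levels can be compared between genes, the metallothioneins were the most abundant of the 9, with means over the 6 libraries of 126 CPM per kilobase for Mt1 and 118 for Mt2. Tsc22d3 averaged 47.0, Dusp1 37.7, Nr3c1 37.6, Sgk1 35.2, Klf9 17.6, Zbtb16 16.7 and Fkbp5 14.6 CPM per kilobase. Zbtb16 and Fkbp5 were thus the least abundant of the 9 by this scale, and Zbtb16 had the highest ratio of its highest to its lowest library, with 42.8 and 5.06 CPM per kilobase.

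Across the 9 genes, 3 were over 2-fold higher in bleomycin against control (Zbtb16, Fkbp5 and Tsc22d3), where 7.75% of all tested genes were. None was over 2-fold lower, beside 7.1% of all tested genes. For EHP-101 against bleomycin 2 of 9 were over 2-fold lower (Zbtb16 and Tsc22d3), beside 4.02% of all tested genes, and Fkbp5 was just short of that limit at a log2 fold change of -0.98. Zbtb16 was at -1.03 in this comparison, just past the limit, and at -0.996 without the second ajulemic acid library, which leaves 1 of 9. For ajulemic acid against bleomycin 3 of 9 were over 2-fold lower (Zbtb16, Fkbp5 and Tsc22d3), beside 3.94%, and Klf9 was just short at -0.99, and past the limit at -1.13 without the first ajulemic acid library and -1.10 without the second, and short of it at -0.75 without the third. Nothing is read from these counts, since the genes were chosen with these contrasts known. All 3 ajulemic acid libraries lay below bleomycin for 5 of the 9 (Zbtb16, Fkbp5, Tsc22d3, Sgk1 and Klf9), beside 24.6% of all tested genes, and above it for 1 (Dusp1), beside 22.9%. The comparisons share the bleomycin library, so a level that is high in that library alone enters as higher in bleomycin against control and as lower in both treatments.

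Against the control, 4 of the 9 were still over 2-fold higher with EHP-101 (Zbtb16, Fkbp5, Tsc22d3 and Dusp1), beside 5.46% of all tested genes, and none over 2-fold lower, beside 4.58%. With ajulemic acid 1 of the 9 was (Dusp1), beside 4.41%, and none was over 2-fold lower, beside 4.15%. Tsc22d3 was just short of 2-fold at a log2 fold change of 0.997, and past it at 1.07 without the second ajulemic acid library and 1.197 without the third, and at 0.62 without the first. All 3 ajulemic acid libraries lay above the control for 2 of the 9 (Tsc22d3 and Dusp1), beside 26.9% of all tested genes, and below it for none, beside 22.2%, and the control lay inside the ajulemic acid range for the other 7. These comparisons share the control library.

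**Figure D2:**
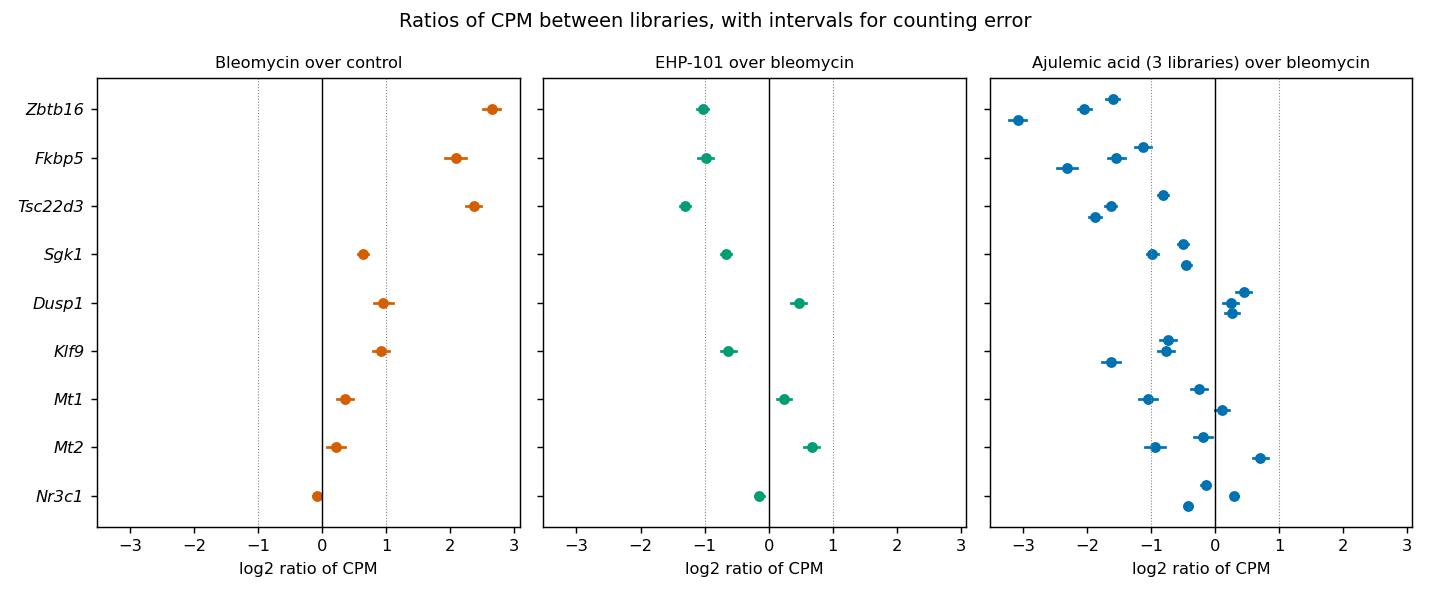
Log2 ratio of each gene's CPM for bleomycin over control, EHP-101 over bleomycin and each of the 3 ajulemic acid libraries over bleomycin, from left to right, with bars for exact 95% intervals of counting error and dotted lines at 2-fold. The ratio of bleomycin to control before the log is 6.26 for Zbtb16, 5.15 for Tsc22d3 and 4.23 for Fkbp5, and 0.945 for Nr3c1.

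The genes whose log2 CPM ran most like Zbtb16 over the 6 libraries were found among the 12764 tested genes whose log2 CPM averaged 2 or more. Fkbp5 was first, with a Pearson r of 0.993, and Zbtb16 was likewise the first for Fkbp5. Since both are highest in the bleomycin library, r was also taken over the other 5 libraries, where it was 0.984 and Fkbp5 ranked 3 for Zbtb16. Next after Fkbp5 came Pdgfc, a growth factor for fibroblasts (r = 0.988), Kctd17 (0.984), a gene with number 100861531 and no symbol (0.983) and Gimap8 (0.983). For Fkbp5 they were Gimap8 (0.992), Macroh2a1 (0.992), Kctd17 (0.989) and Papln (0.987). The libraries share their groups, 6 values are few, and these r values are a description.

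The likeness is of order and not of size. Pdgfc stood at 16.3 CPM with EHP-101, at 13.0 ± 1.21 CPM with ajulemic acid (SD, n = 3), at 19.1 CPM with bleomycin and at 12.3 CPM in the control. Gimap8 stood at 6.77 CPM, 6.03 ± 0.697 CPM (SD, n = 3), 8.21 CPM and 5.32 CPM in the same order of groups. Both genes keep the order of Zbtb16 with smaller differences. The gene with number 100861531 was far more abundant than Zbtb16. It stood at 18518 CPM with EHP-101, at 16812, 15825 and 14531 CPM with ajulemic acid, at 20201 CPM with bleomycin and at 15731 CPM in the control. Among the 9 genes, r was 0.93 between Klf9 and Zbtb16, 0.93 between Fkbp5 and Tsc22d3, 0.95 between Mt1 and Mt2 and -0.88 between Mt2 and Nr3c1. Between Dusp1 and Zbtb16 it was 0.28. Between Sgk1 and Zbtb16 it was 0.53, and -0.25 without the bleomycin library.

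**Figure D3:**
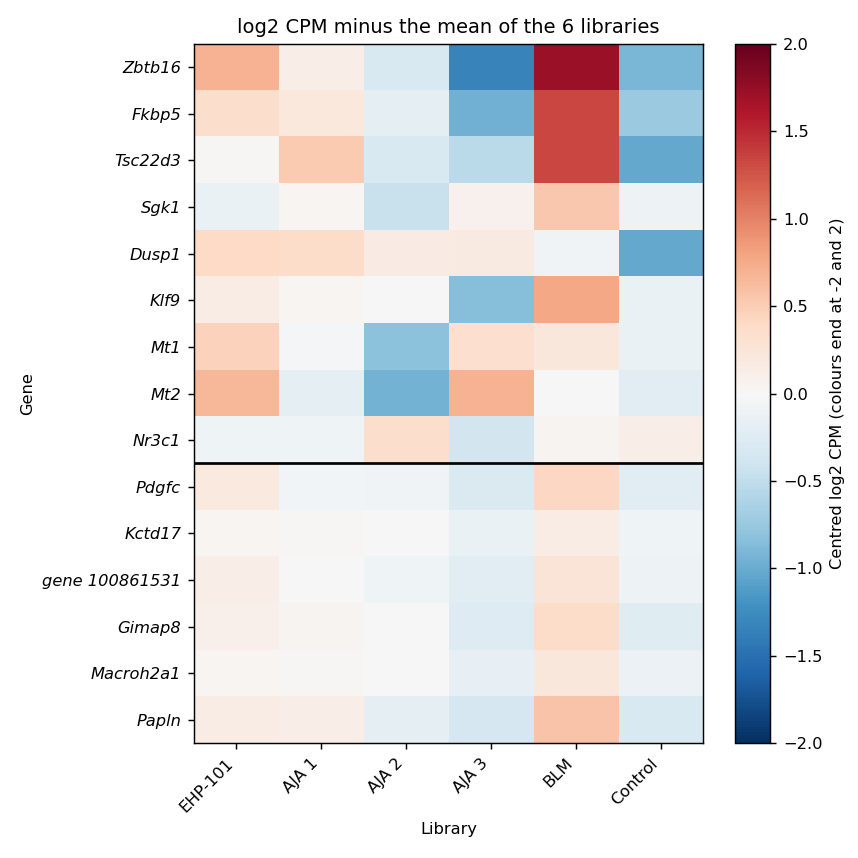
Log2 CPM of the 9 genes (above the line) and of the 6 other genes most like Zbtb16 or Fkbp5 (below it) in each library, as colour, centred on each gene's mean over the 6 libraries, with EHP-101, ajulemic acid, bleomycin and control from left to right. Zbtb16 spans 1.73 in the bleomycin library to -1.34 in the third ajulemic acid library, the widest span of the 9, and the 6 genes below the line have paler colours.

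Beyond the 9, a list of 34 other genes known to be induced by glucocorticoids was followed, and all 34 passed the filter on low counts. This list and the other gene lists of this report were likewise chosen with earlier results of these data known. Their counts and calls are therefore a description and no independent support. In bleomycin against control 27 had a positive and 7 a negative log2 fold change, with a median of 0.43, beside a median of -0.0058 over all tested genes. Of the 34, 6 were over 2-fold higher and 1 over 2-fold lower, beside 7.75% and 7.1% of all tested genes. For EHP-101 against bleomycin 12 were positive and 22 negative with a median of -0.13, beside -0.00029 over all tested genes, and 2 were over 2-fold higher and 1 lower, beside 5.26% and 4.02%. For ajulemic acid against bleomycin 11 were positive and 23 negative with a median of -0.36, beside 0.019 over all tested genes, and 1 was over 2-fold higher and 4 lower, beside 4.35% and 3.94%. Those 4 were Txnip, Fam107a, Hif3a and Tat, and all but Txnip averaged a log2 CPM under 2. Fam107a and Hif3a were also among the 6 over 2-fold higher in bleomycin against control. Tat was also the gene over 2-fold lower with EHP-101. The bleomycin library was the highest of the 6 for 16 of the 34, beside 17.0% of all tested genes.

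Among those of the 34 whose log2 CPM averaged 2 or more, the genes with the greatest log2 fold changes for bleomycin against control were Trim63, Per1, Bcl6 and Ddit4. Trim63, a ubiquitin ligase of skeletal muscle, stood at 20.9 CPM with EHP-101, at 12.3 ± 2.82 CPM with ajulemic acid (SD, n = 3), at 20.6 CPM with bleomycin and at 5.65 CPM in the control. Per1, a clock gene that glucocorticoids induce directly, stood at 63.2 CPM with EHP-101, at 100.7, 52.9 and 57.9 CPM with ajulemic acid, at 108 CPM with bleomycin and at 43.3 CPM in the control, so the control was below every other library. Ddit4, an inhibitor of mTOR signalling, stood at 36.2 CPM with EHP-101, at 32.7 ± 9.93 CPM with ajulemic acid (SD, n = 3), at 65.2 CPM with bleomycin and at 28.6 CPM in the control. Bcl6, a transcriptional repressor, stood at 59.3 CPM, 63.4 ± 18.1 CPM (SD, n = 3), 96.3 CPM and 40.8 CPM in the same order. Each of these 4 except Trim63 was highest in the bleomycin library, as Zbtb16 was.

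Pck1 and Lcn2 did not peak in the bleomycin library, while Txnip, Errfi1 and Cebpd did. Pck1, an enzyme of glucose production that fat cells also make, stood at 102 CPM with EHP-101, at 50.5 ± 10.5 CPM with ajulemic acid (SD, n = 3), at 46.0 CPM with bleomycin and at 172 CPM in the control. The 5 adipocyte markers summed to 955 CPM with EHP-101, to 666, 695 and 525 CPM with ajulemic acid, to 478 CPM with bleomycin and to 1468 CPM in the control, and their part in Pck1 was not tested. Lcn2, an iron-carrier protein of inflamed tissue, stood at 16.8 CPM with EHP-101, at 9.07 ± 2.60 CPM with ajulemic acid (SD, n = 3), at 3.72 CPM with bleomycin and at 3.68 CPM in the control. Txnip, a regulator of glucose uptake and redox state, stood at 453 CPM, 367 ± 99.9 CPM (SD, n = 3), 760 CPM and 509 CPM in the same order. Angptl4, Rgs2 and Cd163 were lower in bleomycin than in the control, at log2 fold changes of -0.71, -0.99 and -0.48, and Errfi1 was lower with EHP-101 than in bleomycin at -0.81, where Cdkn1c was higher at 0.58. With ajulemic acid Cebpd was lower than in bleomycin at -0.75, and Anxa1 was higher at 0.34.

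In no comparison did edgeR's quasi-likelihood test call any of the 34 at a Benjamini-Hochberg adjusted p of 0.05 over all genes tested. At an unadjusted p under 0.05, 6 were higher and 2 lower in bleomycin against control, beside 4.7% and 2.1% of all tested genes, 2 were higher with EHP-101 against bleomycin and none lower, beside 0.575% and 1.32%, and 1 was higher and 5 lower with ajulemic acid against bleomycin, beside 0.622% and 3.21%. DESeq2 called 1 lower in bleomycin against control (Pck1), where it called 0.816% of all genes it tested higher and 0.236% lower. With EHP-101 against bleomycin it called none of the 34, beside 0.0115% higher and 0.046% lower. With ajulemic acid against bleomycin, where it called 0.023% higher and 0.57% lower, it called 1 lower (Tat, a liver enzyme, at 7.38 CPM in the bleomycin library and 0, 0.115 and 0 CPM with ajulemic acid). The edgeR calls over all genes were 0 in bleomycin against control, in EHP-101 against bleomycin or control and in ajulemic acid against bleomycin, and 6 lower with ajulemic acid against control, or 0.0345% of all tested genes. None of the 34 was among them, and the count was 0 without the first ajulemic acid library, 216 without the second and 368 without the third. Only the ajulemic acid group has replicates, so the single libraries are assumed to vary like those 3.

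**Figure D4:**
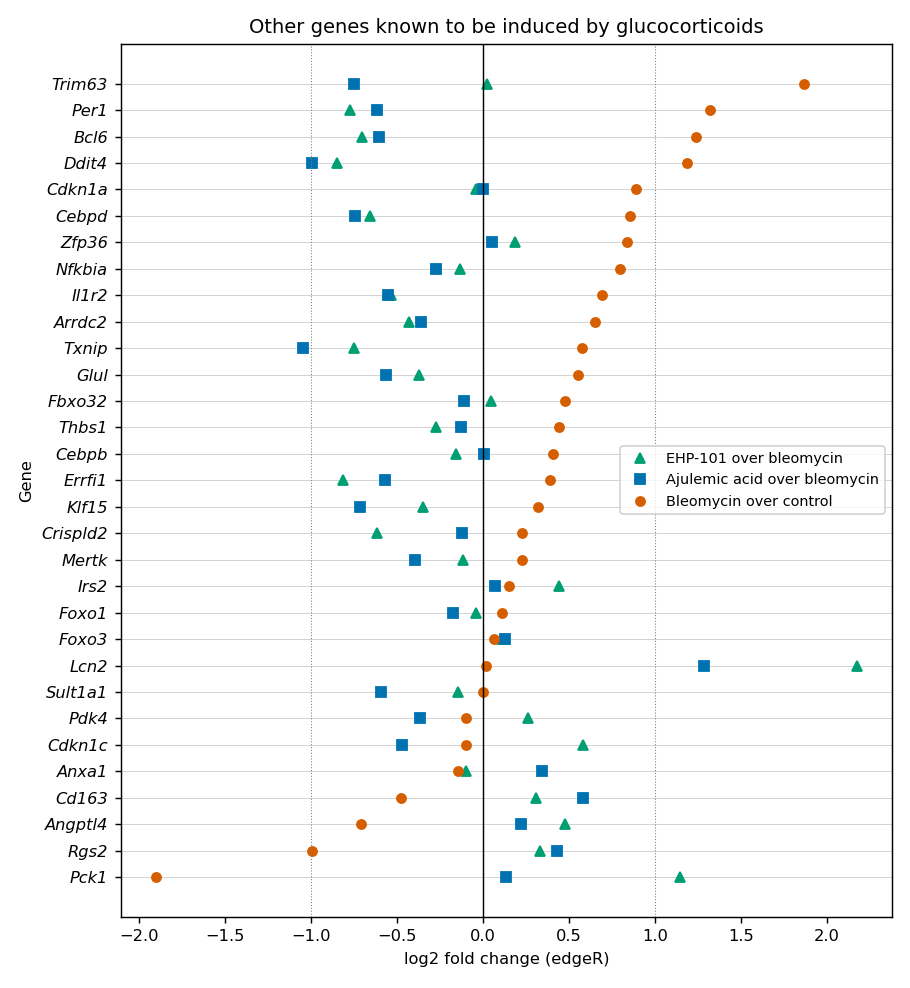
Log2 fold changes (edgeR) of 31 of the 34 other glucocorticoid-induced genes, those whose log2 CPM averaged 2 or more, for EHP-101 against bleomycin, ajulemic acid against bleomycin, and bleomycin against control, sorted by the last. Dotted lines mark 2-fold. Trim63, Per1, Bcl6 and Ddit4 lie over 2-fold higher in bleomycin against control, and Pck1 over 2-fold lower.

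Genes that glucocorticoids repress, most of them inflammatory, were mostly higher in bleomycin than in the control as well. Of 20 listed 17 were tested, of which 10 were over 2-fold higher in bleomycin against control and none over 2-fold lower, beside 7.75% and 7.1% of all tested genes, with a median log2 fold change of 1.13. Among the 10, Il6, Cxcl1, Mmp13 and Cxcl10 averaged a log2 CPM under 2. For EHP-101 against bleomycin 4 were over 2-fold lower and none higher, beside 4.02% and 5.26%, with a median of -0.55. For ajulemic acid against bleomycin 5 were over 2-fold lower and 1 higher (Ccl5, a chemokine under 1 CPM in every library), beside 3.94% and 4.35%, with a median of -0.17. Sele, an adhesion molecule of inflamed vessels, stood at 11.4 CPM with EHP-101, at 7.56 ± 2.77 CPM with ajulemic acid (SD, n = 3), at 9.24 CPM with bleomycin and at 1.58 CPM in the control. Mmp9, a matrix protease of myeloid cells, stood at 5.92 CPM, 4.54 ± 2.22 CPM (SD, n = 3), 16.6 CPM and 3.48 CPM in the same order. Il1b, an inflammatory cytokine, stood at 5.79 CPM, 6.97 ± 1.61 CPM (SD, n = 3), 5.07 CPM and 1.97 CPM. Ptgs2, the inducible cyclooxygenase, was lowest in the bleomycin library, with 5.12 CPM, 7.57 ± 1.80 CPM (SD, n = 3), 4.30 CPM and 5.06 CPM. None of the 17 was called by edgeR in these 3 comparisons, with 8 higher at an unadjusted p under 0.05 for bleomycin against control, beside 4.7% of all tested genes, and 3 lower for each treatment against bleomycin, beside 1.32% with EHP-101 and 3.21% with ajulemic acid. DESeq2 called 4 higher for bleomycin against control, beside 0.816%, none for EHP-101 against bleomycin and 1 lower for ajulemic acid against bleomycin, beside 0.57%.

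Markers of other tissues were read beside the targets. The skeletal muscle markers summed to 3737 CPM with EHP-101, to 2400, 3872 and 2073 CPM with ajulemic acid, to 4506 CPM with bleomycin and to 1994 CPM in the control, so the highest library was that of Zbtb16, and all 6 muscle markers were higher in bleomycin than in the control. The neutrophil markers S100a8, S100a9 and Retnlg summed to 7.14 CPM with EHP-101, to 7.77, 12.7 and 7.38 CPM with ajulemic acid, to 23.5 CPM with bleomycin and to 8.41 CPM in the control. The macrophage markers summed to 175 CPM with EHP-101, to 246, 279 and 179 CPM with ajulemic acid, to 264 CPM with bleomycin and to 211 CPM in the control. The part of these tissues in Zbtb16 and its fellow targets was not tested. Alb, a liver transcript, stood at 454 CPM with EHP-101 and at 5.59, 12.6 and 1.74 CPM with ajulemic acid, against 477 CPM with bleomycin and 678 CPM in the control, which is not the order of Zbtb16 since the control was highest.

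**Figure D5:**
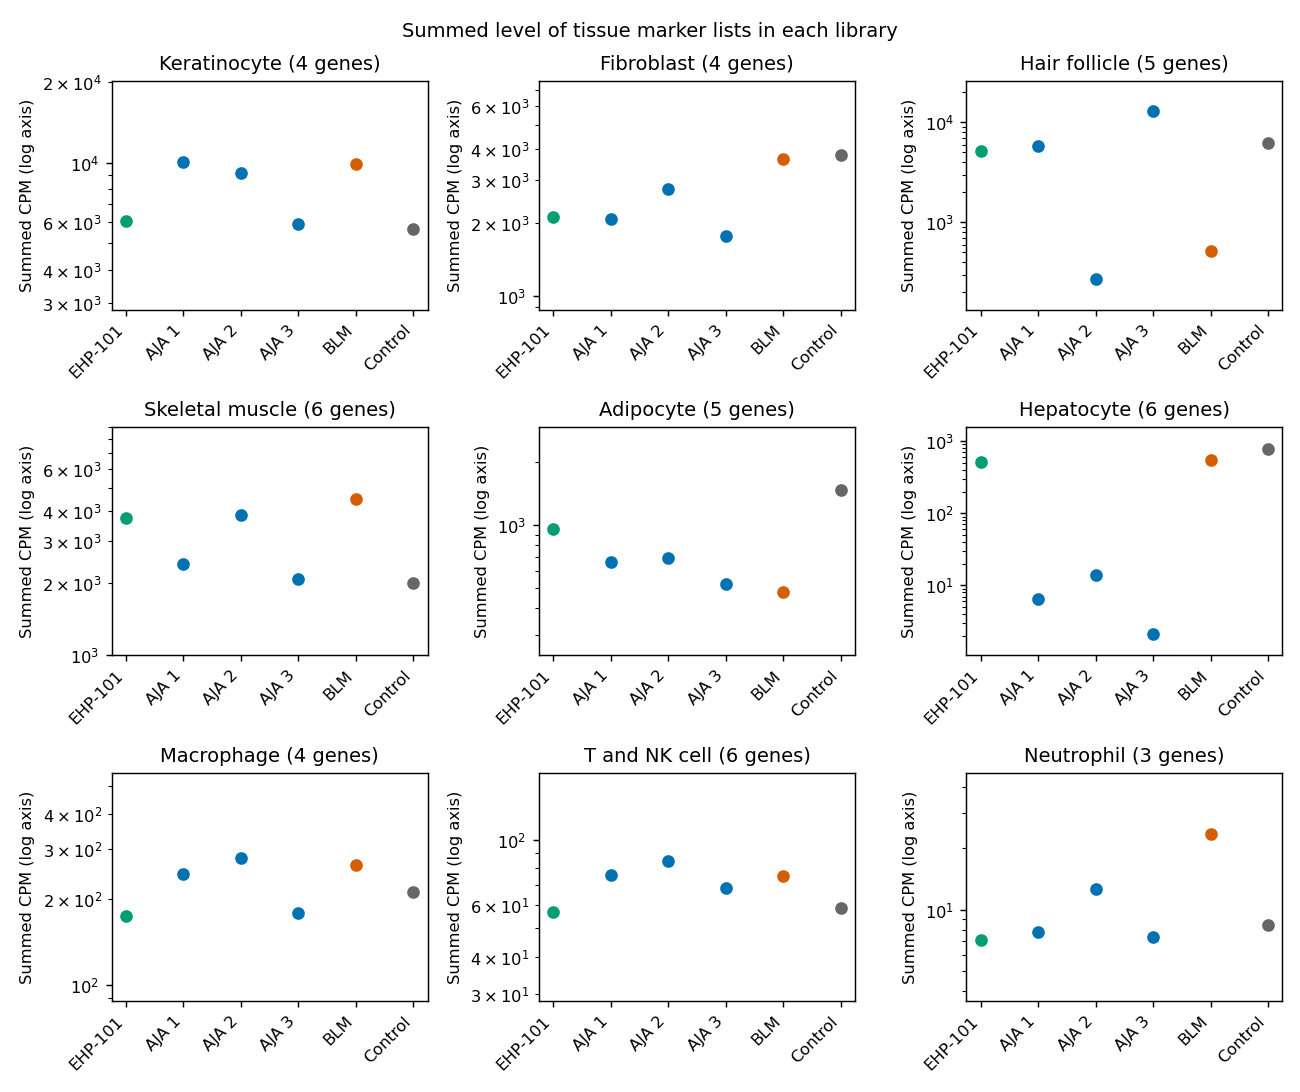
Summed CPM of the marker genes of each tissue or cell type in each library, on a log axis, with EHP-101, ajulemic acid, bleomycin and control from left to right. The muscle sum is highest in the bleomycin library at 4506 CPM, and the hepatocyte sum lies under 14 CPM in all 3 ajulemic acid libraries.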

How the data were processed

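Stranded libraries depleted of ribosomal RNA were built from 300 ng of total skin RNA and read from a single end over 50 bp, per the labels' protocols. The submitters' processing notes name mm10 as the genome, HISAT2 2.1.0, Trimmomatic 0.36, DESeq2 1.20.0 and featureCounts 1.6.1. The authors deposited raw counts per gene keyed by NCBI gene number. How strand and multiply matching reads were treated is not given in the sources used here. On the gene's own strand at most 0.456% of the 50-base stretches of any of the 9 (Tsc22d3) also occur in another gene's annotated transcripts, while on the opposite strand Mt2 shares 254 of 554. Symbols were matched for 25275 gene numbers and not for 1904. The 6 library columns were identical in both deposited tables (0 differing values), and 6 further columns of the merged table, which belong to no sample here, were not used.

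The 9 genes and 16 further gene lists were chosen with earlier results of these data known. Named genes are the 9, the 5 most correlated with Zbtb16 and with Fkbp5, the 4 (glucocorticoid-induced list) or 2 (other lists) with the greatest log2 fold change in each direction among genes of mean log2 CPM of at least 2, and Per1, Hsd11b1, Hsd11b2, Nr3c2, Fkbp4, Hsp90ab1, Mtf1, Mt4 and Alb. Genes of the marker lists are given through their sums, and some results the rule selects are not reported here.

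Counts as deposited were fitted with edgeR 4.0.16 (R 4.3.3): filterByExpr with a minimum count of 10, TMM, robust quasi-likelihood F-tests, two-sided, 1 fit of 6 libraries, 5 comparisons, Benjamini-Hochberg adjustment over 17377 genes, called at 0.05. Only 2 residual degrees of freedom were left, from the ajulemic acid libraries (common biological coefficient of variation 0.267). CPM uses TMM-scaled library sizes, log2 CPM a prior count of 3. Poisson intervals of counts and exact conditional intervals of ratios are at 95%. DESeq2 1.42.0, RLE scaling, no filter, a library size without mitochondrial rRNA and hepatocyte genes, a prior count of 0.5 in the edgeR fit and leaving out each ajulemic acid library were the alternatives. A 1.5-fold limit was a further alternative for the counts of the glucocorticoid-induced list only. Correlations without the bleomycin library were added after seeing the data. Promoters are from RefSeq (GRCm38.p6). Windows were found for 7 of the 9 genes. Zbtb16 and Nr3c1 were the others.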

Additional observations from a re-analysis of the deposited data

How the results depend on the processing

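No paired analysis was possible because the groups share only the replicate number 3, which leaves 1 pair in each comparison. The 360 alternative log2 fold changes of the 9 genes all moved by less than 1 SD of the ajulemic acid libraries. That limit could hardly be passed, since the SD comes from the same libraries that were left out in turn. It is therefore no sign that the values are stable. Of the 360 values, 12 changed sign, all in comparisons with ajulemic acid and all for values whose main size was at most 0.23 (Mt1, Mt2, Nr3c1, Sgk1 and Klf9). The numbers of genes called moved with the setting. DESeq2 called 165 genes in bleomycin against control, 10 in EHP-101 against bleomycin, 103 in ajulemic acid against bleomycin, 120 in EHP-101 against control and 276 in ajulemic acid against control, where edgeR called 0, 0, 0, 0 and 6. With no filter on low counts edgeR called 41 for ajulemic acid against bleomycin and 153 against control. Leaving out 1 ajulemic acid library gave 0 to 179 genes for bleomycin against control, 0 to 92 for ajulemic acid against bleomycin, 0 to 91 for EHP-101 against control and 0 to 368 for ajulemic acid against control, with the lowest count without the first library and the highest without the third each time, and 0 for EHP-101 against bleomycin. The cause was not tested. At a 1.5-fold limit, 16, 11, 12, 11 and 11 of the 34 induced genes passed in either direction in bleomycin against control, EHP-101 against bleomycin, ajulemic acid against bleomycin, EHP-101 against control and ajulemic acid against control, against 7, 3, 5, 5 and 6 at 2-fold. At 1.5-fold 13, 2, 1, 8 and 8 were higher and 3, 9, 11, 3 and 3 lower. The share of all tested genes at 1.5-fold was not computed, so nothing is read from these counts. With 1 library in 3 of the 4 groups, differences between groups cannot be told apart from differences between those libraries.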

Other observations

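Clock genes other than Per1 were read too, because adrenal hormone output follows the time of day. The part of the time of day in the levels of the targets was not tested. Of 16 tested, 12 were positive for EHP-101 against bleomycin and 12 for ajulemic acid against bleomycin. Their median log2 fold changes were 0.29 and 0.19, beside -0.00029 and 0.019 over all tested genes. Per2, a clock repressor, stood at 20.4 CPM with EHP-101, at 25.6, 24.8 and 19.6 CPM with ajulemic acid, at 8.27 CPM in the bleomycin library and at 6.70 CPM in the control, so every treated library was above both others. Cry1, its partner, stood at 11.6 CPM with EHP-101, at 13.6 ± 2.08 CPM with ajulemic acid (SD, n = 3), at 6.73 CPM with bleomycin and at 9.78 CPM in the control. Arntl, the activator of the loop, stood at 21.4 CPM with EHP-101, at 23.8, 21.4 and 24.9 CPM with ajulemic acid, at 35.6 CPM with bleomycin and at 34.5 CPM in the control. Npas2, a partner of Arntl, stood at 4.94 CPM, 5.62 ± 1.09 CPM (SD, n = 3), 11.03 CPM and 8.47 CPM in the same order. None of the 16 passed edgeR's adjusted test in these 2 comparisons. At an unadjusted p under 0.05, 1 was higher and 2 lower with EHP-101, beside 0.575% and 1.32% of all tested genes, and 3 were higher and 2 lower with ajulemic acid, beside 0.622% and 3.21%. DESeq2 called none with EHP-101 and 1 higher with ajulemic acid, beside 0.023%. Dbp, a clock output factor, stood at 18.8 CPM with EHP-101, at 19.1, 30.3 and 12.4 CPM with ajulemic acid, at 10.1 CPM with bleomycin and at 10.3 CPM in the control. In bleomycin against control the log2 fold changes were 1.05 for Ciart, 0.48 for Bhlhe40, -0.54 for Cry1 and -0.51 for Nfil3. The hour of collection was not given in the labels.

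Mt4, a metallothionein of stratified epithelium, had the order of Mt1 and Mt2 among the ajulemic acid libraries but was highest in the control among the single libraries. It stood at 40.3 CPM with EHP-101, at 57.0, 22.4 and 79.0 CPM with ajulemic acid (mean 52.8 ± 28.5, SD, n = 3), at 28.7 CPM with bleomycin and at 60.3 CPM in the control. Mmp3, a matrix protease that glucocorticoids repress, stood at 10.7 CPM with EHP-101, at 15.9 ± 8.83 CPM with ajulemic acid (SD, n = 3), at 42.0 CPM with bleomycin and at 27.1 CPM in the control. Hmox1, an enzyme that breaks down heme, stood at 45.01 CPM, 52.8 ± 6.17 CPM (SD, n = 3), 65.9 CPM and 44.5 CPM in the same order.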
